A study of Mus musculus with 2 samples.

Results

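Low-UMI insulin barcodes were described in islet cells of 2 mouse groups. A UMI (unique molecular identifier) marks 1 captured RNA molecule, and a barcode marks 1 droplet. The members were the barcodes with at least 500 genes, 1000 to 3000 UMIs, at most 20% of UMIs from mitochondrial-encoded genes and at least 20% of UMIs from the insulin genes Ins1 and Ins2. They numbered 1346 of 20213 deposited barcodes: 713 of 10775 in the library labelled BcBKO and 633 of 9438 in the flox/flox library. They were set against intact beta cells of the same library, defined by at least 25% insulin UMIs, at least 10000 UMIs and under 1% each of Gcg, Sst and Ppy, which numbered 3058 in the library labelled BcBKO and 2750 in the flox/flox library.

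The study compared islets of BcBKO Pdx1-cre mice, described as a beta-cell-specific ablation of BAF60C, with islets of flox/flox mice. Pdx1 drives Cre in this cross, and Pdx1 is also active in other pancreatic cells during development. Islets of at least 3 mice per group were pooled, digested with TrypLE (a trypsin substitute) and captured on a 10x 3′ droplet platform with about 16000 cells loaded and about 10000 captured, so each group is 1 library without replicates. Age, sex and diet of the mice are not given in the labels.

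With 1 library per group no test across animals exists. Intervals below are exact 95% Poisson or binomial intervals and cover counting error only. Smarcd3, which encodes BAF60C, was at 1.73 CPM (UMIs of the gene scaled to a fixed total per set) in members of the library labelled BcBKO and at 1.99 CPM in flox/flox members, from 2 UMIs each. In intact beta cells it was at 0.61 CPM in the library labelled BcBKO (71 UMIs) and 0.37 CPM in the flox/flox library (45 UMIs). In intact beta cells it was not lower in the library labelled BcBKO, and 2 UMIs in members allow no comparison. A 3′ count outside the deleted part of the gene would not check the label. The libraries held 178647270 and 167670996 UMIs, the one labelled BcBKO first, and the members held 0.647% and 0.599% of them. The libraries shared 23 barcodes, of which 0 and 1 belonged to members, and no barcode was a member in both.

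In a mammalian cell most finished mRNA lies in the cytoplasm, while some long noncoding RNAs (lncRNAs) stay in the nucleus: Malat1 in nuclear speckles, Neat1 as the scaffold of paraspeckles, and Kcnq1ot1 and Meg3 at or near imprinted loci. Beta cells are the insulin-secreting cells of the islet, and their cytoplasm is dominated by insulin mRNA, secretory pathway mRNA and ribosomes. In preparations of isolated nuclei the nuclear lncRNAs take a larger share of the captured RNA than in whole cells.

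Stretches rich in A of 3 nuclear lncRNAs are shown because the oligo-dT primers of a 3′ kit bind A. The sequences were read from the longest GENCODE M21 transcript of each gene, 5′ to 3′ on the gene's strand, on GRCm38. Malat1 lies on chromosome 19 (5795690 to 5802672, minus strand, a lincRNA of 1 exon) next to Neat1 on the same strand (5824708 to 5845478, 1 exon). Capitals in both mark the same 11 bases, AAAAAGCAAAA, which in Malat1 stand 292 bases before the annotated 3′ end and in Neat1 form that end.
Malat1: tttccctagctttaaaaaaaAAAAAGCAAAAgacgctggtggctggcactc
Neat1: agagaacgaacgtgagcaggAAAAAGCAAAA
The 11 bases were found in 2.71% of 2210 longest transcripts of tested genes on the sense strand and in 2.44% on the opposite strand. As background, the mature 3′ ends of Malat1 and of the long Neat1 transcript carry this A-rich tract in place of a poly(A) tail, and in Malat1 the bases that follow begin a small tRNA-like RNA.

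Meg3 lies on chromosome 12 (109541001 to 109571726, plus strand, 5 exons in its longest transcript), and Kcnq1ot1 on chromosome 7 (143203458 to 143296549, minus strand, 1 exon). Capitals mark the longest run of A in Kcnq1ot1, of 41 bases.
Kcnq1ot1: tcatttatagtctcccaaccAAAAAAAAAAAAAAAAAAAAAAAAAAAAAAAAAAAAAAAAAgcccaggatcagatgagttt
A run of 12 or more A was present in 18.4% of the 2210 transcripts on the sense strand and in 20.7% on the opposite strand. The counts do not record where a read began, so use of these stretches was not tested.

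Of the barcodes of 1000 to 3000 UMIs, 29.4% (27.6 to 31.2) were members in the library labelled BcBKO and 31.3% (29.3 to 33.4) in the flox/flox library. Of all deposited barcodes, members made up 6.62% (6.15 to 7.10) in the library labelled BcBKO and 6.71% (6.21 to 7.23) in the flox/flox library, intervals that overlap. In the library labelled BcBKO, 2426 barcodes lay in the UMI window. Of these, 1262 had under 20% insulin UMIs, 144 had enough insulin but over 20% mitochondrial UMIs, and 307 met both of those limits with fewer than 500 genes. The same counts in the flox/flox library were 2020, 1014, 125 and 248.

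Members held a median of 1507 UMIs and 595 genes in the library labelled BcBKO, against 33172 UMIs and 3731 genes in its intact beta cells. In the flox/flox library the medians were 1470 UMIs and 607 genes in members, against 38462 UMIs and 3971 genes in intact beta cells. On average a member held 4.26% of the UMIs of an intact beta cell in the library labelled BcBKO and 3.63% in the flox/flox library. The median mitochondrial share of members was 4.48% and 4.56%, against 2.59% and 2.25% in intact beta cells, the library labelled BcBKO first in each pair. The median insulin share of members was 32.0% in the library labelled BcBKO and 31.6% in the flox/flox library, against 62.4% and 64.3% in intact beta cells. These measures entered the rule, and they are given as a description of what it chose.

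The lncRNA list made up a far larger share of the RNA of members than of intact beta cells. Summed over barcodes, its 12 genes present in the files held 8.24% of UMIs in members and 0.621% in intact beta cells of the library labelled BcBKO, a 13.3-fold ratio (log2 3.73, 3.72 to 3.74). In the flox/flox library they held 7.32% in members and 0.580% in intact beta cells, a 12.6-fold ratio (log2 3.66, 3.65 to 3.67). A member thus held 134 lncRNA UMIs on average in the library labelled BcBKO, against 237 in an intact beta cell, which is 56.5%. In the flox/flox library a member held 116 against 254 in an intact beta cell, which is 45.8%.

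Malat1 was the most abundant of the list. It averaged 121 UMIs per member and 206 per intact beta cell in the library labelled BcBKO, and 103 per member and 226 per intact beta cell in the flox/flox library. In CPM its level was 13.7-fold higher in members of the library labelled BcBKO and 12.6-fold higher in flox/flox members. Malat1 made up most of the list's UMIs in each set, and the other genes were therefore read one by one.

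Meg3, an imprinted lncRNA of endocrine cells, averaged 9.71 UMIs per member against 23.4 per intact beta cell in the library labelled BcBKO, and 9.58 against 20.8 in the flox/flox library. Kcnq1ot1, the antisense transcript of the Kcnq1 imprinted domain, averaged 1.44 against 2.62 in the library labelled BcBKO and 1.47 against 2.62 in the flox/flox library. Neat1 averaged 1.02 against 2.28 and 0.938 against 1.95 in the same order. All 3 were therefore held in members at 41.6% to 56.3% of the number in intact beta cells, while all UMIs together stood at 4.26% and 3.63%.

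In CPM, Meg3 was 9.75-fold higher in members of the library labelled BcBKO (log2 3.28, 3.25 to 3.32) and 12.6-fold higher in flox/flox members (log2 3.66, 3.62 to 3.70). Kcnq1ot1 was 12.8-fold (log2 3.67, 3.60 to 3.79) and 15.3-fold higher (log2 3.93, 3.86 to 4.05), the library labelled BcBKO first. Neat1 was 10.3-fold (log2 3.37, 3.28 to 3.50) and 13.0-fold higher (log2 3.70, 3.61 to 3.85). Kcnq1ot1 lies antisense to Kcnq1, and whether the authors' counting used strand is not given in the sources used here.

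The lncRNA Mirg, a microRNA host transcript of the same imprinted locus as Meg3, was at 204 CPM in members and 19.1 CPM in intact beta cells of the library labelled BcBKO, and at 164 and 13.1 CPM in the flox/flox library. Snhg11, a small nucleolar RNA host gene, was at 283 and 30.6 CPM in the library labelled BcBKO and at 298 and 27.3 CPM in the flox/flox library. Airn, the antisense transcript of the Igf2r domain, was at 32.9 and 5.33 CPM and at 36.8 and 4.84 CPM in the same order, under the 50 CPM minimum used for counting. The remaining lncRNAs of the list present in the files (Xist, Tsix, Miat, Rmst and Pvt1) were each at 2 CPM or less in members of both libraries, from 0 to 2 UMIs.

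Because members are shallow, barcodes were also thinned to 1000 UMIs each, which left out no barcode of either set. After thinning, the lncRNA list took a median of 7.8% of UMIs in members of the library labelled BcBKO against 0.6% in its intact beta cells, and 6.8% against 0.5% in the flox/flox library. In the library labelled BcBKO 671 of 713 members lay above the 99th percentile of intact beta cells, and in the flox/flox library 596 of 633 did. The higher share is thus found in most members at equal depth.

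A Meg3 UMI was found after thinning in 94.5% of members and 44.4% of intact beta cells of the library labelled BcBKO, and in 93.0% and 38.1% in the flox/flox library. Macrophage-marker barcodes, which held 20 or more UMIs of macrophage genes, under 20% insulin UMIs and under 10000 UMIs, and whose cell type is not known for Meg3, gave 6.35% in the library labelled BcBKO and 5.65% in the flox/flox library. Their median depth was 5070.5 and 5478.5 UMIs before thinning. Kcnq1ot1 was found in 51.8% of thinned members of the library labelled BcBKO, 6.44% of its intact beta cells and 5.82% of its macrophage-marker barcodes. The shares in the flox/flox library were 53.9%, 5.67% and 6.52%. Without thinning, Meg3 was found in 95.8% and 93.8% of members and in 99.7% of intact beta cells of each library.

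**Figure D1:**
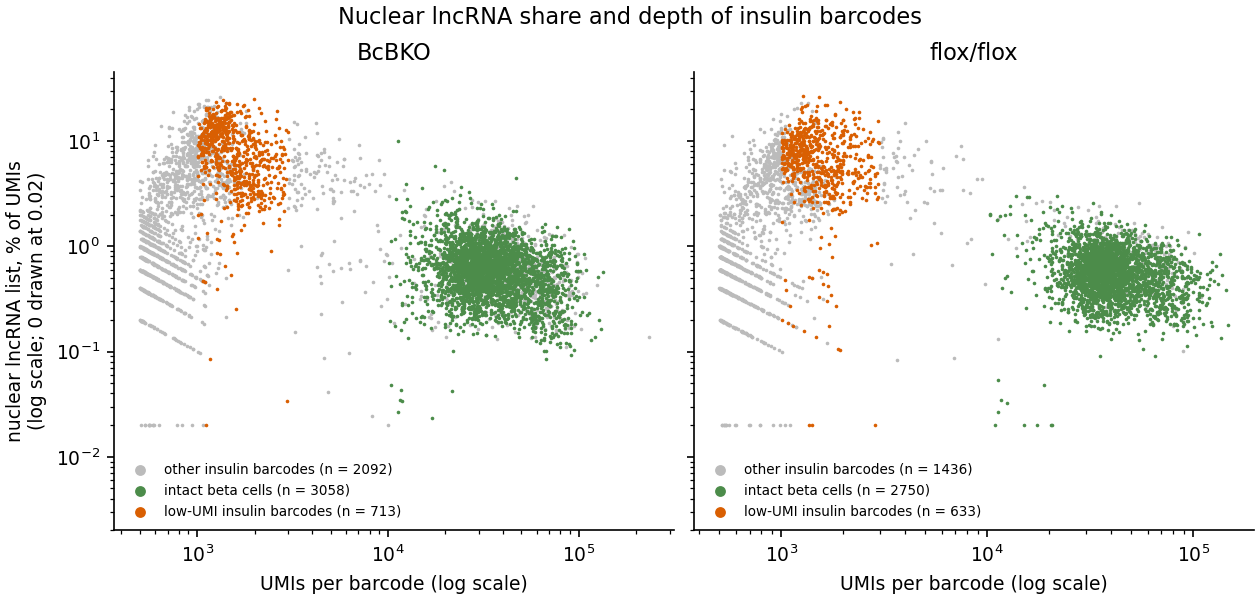
Each point is 1 barcode with at least 20% insulin UMIs and at most 20% mitochondrial UMIs, or an intact beta cell, with its UMIs on the x axis and the share of the nuclear lncRNA list on the y axis, both on log scales. The low-UMI insulin barcodes (orange) have medians of 7.96% (BcBKO) and 6.74% (flox/flox), above the intact beta cells (green) with medians of 0.581% and 0.547%, and a few orange points lie below 2%.

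The median lncRNA share varied with the number of UMIs among insulin barcodes. Among all barcodes with at least 20% insulin and at most 20% mitochondrial UMIs, whatever their number of genes, the median lncRNA share was 0.965% at 500 to 799 UMIs in the library labelled BcBKO and 0.750% in the flox/flox library. It was 4.62% and 4.40% at 800 to 999 UMIs, 8.49% and 5.70% at 1000 to 1499 UMIs, 3.79% and 4.66% at 3001 to 9999 UMIs, and 0.674% and 0.954% at 10000 to 19999 UMIs, the library labelled BcBKO first. In both libraries the medians between 1000 and 3000 UMIs were the highest of the UMI ranges used. Malat1 averaged 10.2 and 7.70 UMIs per barcode at 500 to 799 UMIs and 166 and 195 at 3001 to 9999 UMIs.

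**Figure D2:**
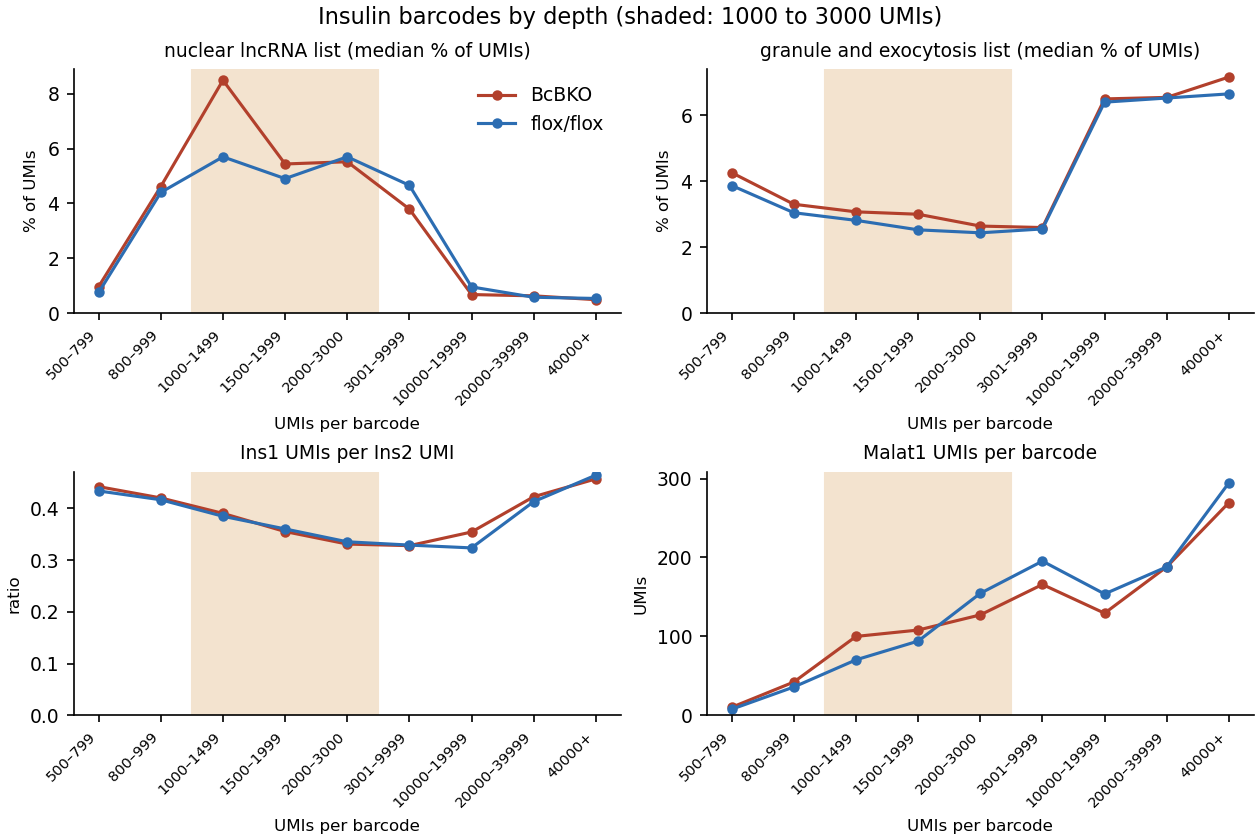
Insulin barcodes of each library were grouped by UMIs per barcode (x axis, the 1000 to 3000 UMI range shaded), and the panels give the median share of the lncRNA list and of the granule and exocytosis list, the Ins1 to Ins2 ratio of summed UMIs, and the mean Malat1 UMIs. The lncRNA share peaks inside the shaded range while the granule share is at 2.43% to 3.07% there, against 6.39% to 7.15% in barcodes of 10000 UMIs or more.

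Barcodes just outside the limits of the rule often resembled those just inside. Members with 20 to 22% insulin had a median lncRNA share of 12.9% in the library labelled BcBKO (n = 125), and barcodes with 18 to 20% insulin that met every other limit had 13.7% (n = 120). Those medians in the flox/flox library were 10.1% (n = 116) and 11.4% (n = 138). At 2700 to 3000 UMIs the median was 5.32% (n = 26) in the library labelled BcBKO against 4.30% (n = 20) from 3001 up to 3301 UMIs, and 4.68% (n = 21) against 5.43% (n = 17) in the flox/flox library. At the mitochondrial limit, members of 18 to 20% had 8.42% (n = 11) and barcodes of 20 to 22% had 4.84% (n = 18) in the library labelled BcBKO, and 6.62% (n = 5) and 6.80% (n = 6) in the flox/flox library. At the lower UMI limit, members of 1000 to 1100 UMIs had 8.56% (n = 51) and barcodes of 900 to 1000 UMIs 4.60% (n = 9) in the library labelled BcBKO, and 7.31% (n = 61) and 8.24% (n = 22) in the flox/flox library.

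A high lncRNA share was not limited to insulin barcodes. Insulin-poor barcodes of 1000 to 3000 UMIs that met the gene and mitochondrial limits numbered 912 in the library labelled BcBKO and 758 in the flox/flox library. Summed, the lncRNA list held 8.24% of UMIs in members and 6.19% in insulin-poor barcodes of the library labelled BcBKO, and 7.32% and 8.12% in the flox/flox library. Members were thus above the insulin-poor barcodes in 1 library and below them in the other. The ribosomal protein list held 2.68% of summed UMIs in members and 12.1% in insulin-poor barcodes of the library labelled BcBKO, and 2.44% and 7.55% in the flox/flox library. Its median per barcode was 2.24% in members and 9.39% in insulin-poor barcodes of the library labelled BcBKO, and 2.02% and 2.35% in the flox/flox library. The ranges of the sets overlapped in both libraries, and in the flox/flox library the middle part of the members (quartiles 1.60% and 2.52%) lay inside that of the insulin-poor barcodes (1.47% and 9.79%). The splicing and speckle list held 0.904% and 0.785% in the library labelled BcBKO and 0.985% and 0.967% in the flox/flox library.

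Most tested genes had a higher CPM in members than in intact beta cells, where insulin alone took 62.4% and 64.3% of the median barcode. Of 2211 genes with at least 50 CPM in members or intact beta cells of each library, 1151 (52.1%) were at least 2-fold higher in members in both libraries and 27 (1.22%) at least 2-fold lower. A gene under 50 CPM in intact beta cells could pass only through its level in members, which favours a count as higher. The ratio is log2((CPM + 1)/(CPM + 1)), and its median over these genes was 1.12 in the library labelled BcBKO and 1.28 in the flox/flox library. Relative to that median gene, 374 genes (16.9%) were at least 2-fold above and 639 genes (28.9%) at least 2-fold below in both libraries. TMM factors, which assume that most genes are level, lower every log2 ratio by 1.33 in the library labelled BcBKO and 1.47 in the flox/flox library. They gave 164 genes higher and 1007 lower, of 1982 tested with these factors. Ratios are therefore given against both 0 and the median gene.

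By that count the lncRNA list stood at the upper end. The 6 of its genes that passed the 50 CPM minimum (Malat1, Neat1, Meg3, Kcnq1ot1, Mirg and Snhg11) were all at least 2-fold higher in both libraries (52.1% over all genes), and all 6 were also at least 2-fold above the median gene (16.9% over all genes). Their median ratio was log2 3.36 in the library labelled BcBKO and 3.66 in the flox/flox library. The list was chosen with these results known, so the count is a description. Mirg and Snhg11 were under 50 CPM in intact beta cells of both libraries and passed that minimum through members only. Neat1 did so in the flox/flox library.

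mRNAs of nuclear proteins that work beside these lncRNAs were also higher in members. All 22 tested genes of the splicing and speckle list were at least 2-fold higher in members in both libraries (52.1% over all genes), and 14 of the 22 were at least 2-fold above the median gene (16.9% over all genes). Summed, the list was 5.13-fold higher in members of the library labelled BcBKO (log2 2.36) and 5.53-fold higher in flox/flox members (log2 2.47). Pnisr, a serine and arginine-rich splicing protein, was at 257 CPM in members and 32.1 CPM in intact beta cells of the library labelled BcBKO, and at 274 and 32.7 CPM in the flox/flox library. Pnisr thus passed the 50 CPM minimum through members only, which favours a count as higher, so the counts of this list are a description. At the low end of the list, Ddx5, an RNA helicase, was 1.47 and 1.53 higher and Srrm1, a spliceosome co-activator, 1.48 and 1.74 higher on the log2 scale.

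Transcripts known to be retained in the nucleus were also higher in members. All 4 tested genes of that list were at least 2-fold higher in both libraries (52.1% over all genes), and 2 of the 4 were at least 2-fold above the median gene (16.9% over all genes). Mlxipl, which encodes the glucose-responsive factor ChREBP and whose mRNA is described as retained in the nucleus of beta cells, was at 535 CPM in members and 60.1 CPM in intact beta cells of the library labelled BcBKO, and at 731 and 60.8 CPM in the flox/flox library. Ogt, the O-GlcNAc transferase, was at 187 and 26.8 CPM and at 193 and 24.5 CPM, and so passed the 50 CPM minimum through members only. The 6 tested genes of a list of long genes of neurons and islets were all at least 2-fold higher as well (52.1% over all genes), and 4 of the 6 were at least 2-fold above the median gene (16.9% over all genes), with Unc79, an ion channel subunit, at log2 2.99 and 2.78. Passing the minimum through members only favours a count as higher, so the counts of both lists are descriptions.

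**Figure D3:**
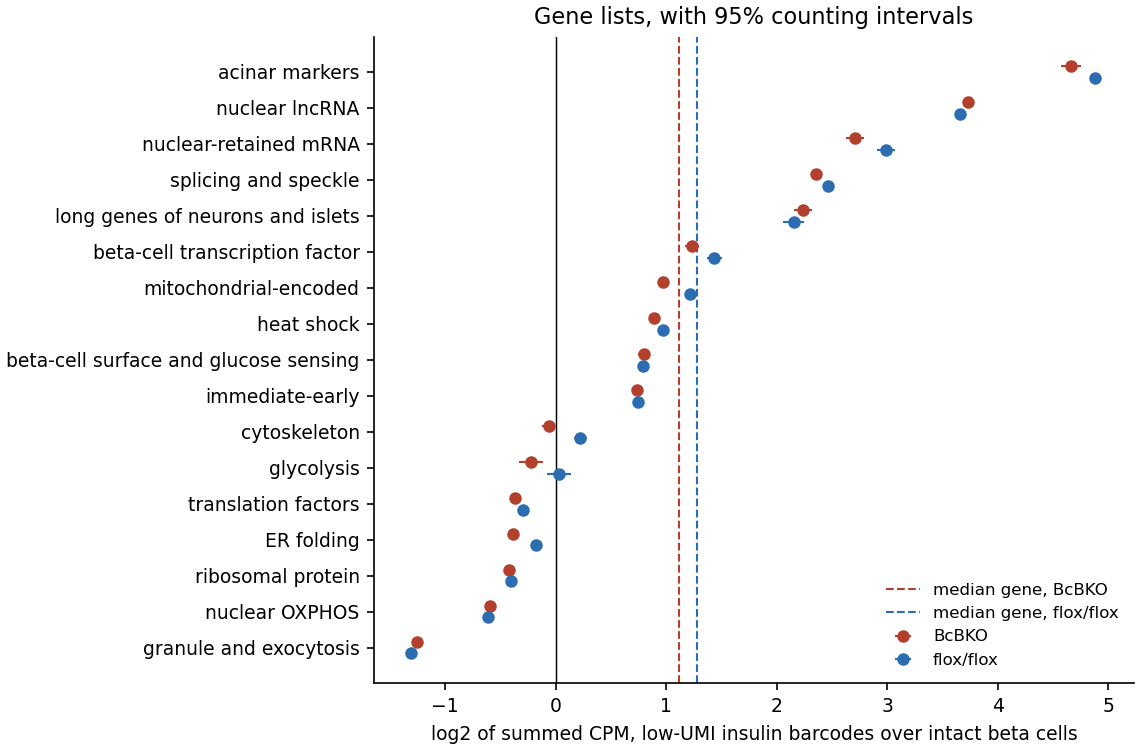
For each gene list the log2 ratio of summed CPM in low-UMI insulin barcodes over intact beta cells is drawn per library, with the 95% counting interval as a bar (often hidden by the point) and the median tested gene as a dashed line (1.12 in BcBKO and 1.28 in flox/flox). The acinar markers lie furthest right. The nuclear lncRNA, nuclear-retained mRNA, splicing and speckle, long-gene and beta-cell transcription factor lists also lie right of the dashed lines. The ribosomal, respiratory, ER and granule lists lie left of 0. Cytoskeleton changes side between libraries, and the interval of glycolysis spans 0 in flox/flox.

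The ranking of single genes left out mitochondrial-encoded, ribosomal protein and acinar genes, islet hormones and unnamed gene models. Among the 12 genes with the highest ratios in it were the 6 lncRNAs above. The other 6 were the pseudogene Gpr137b-ps (log2 4.66 and 4.60), Lars2 (3.63 and 3.90), Cacna1c (3.21 and 3.34), Park2 (3.20 and 3.33), Fam193b (3.16 and 3.48) and Mlxipl (3.13 and 3.57), the library labelled BcBKO first. Lars2 encodes the mitochondrial leucyl-tRNA synthetase, Cacna1c a voltage-gated calcium channel subunit and Park2 the ubiquitin ligase parkin. Cacna1c was at 92.6 CPM in members and 9.11 CPM in intact beta cells of the library labelled BcBKO and at 88.6 and 7.82 CPM in the flox/flox library. Gpr137b-ps may share reads with its parent gene, and its ratio is uncertain for that reason.

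Among the tested genes the ratio moved with the length of the gene on the chromosome. When the 2211 tested genes were split into 5 equal groups by their mean ratio, the median genomic span in GENCODE M21 was 7.80 kb in group 1 (lowest ratio), 15.0 kb in group 2, 42.6 kb in group 3, 68.0 kb in group 4 and 63.2 kb in group 5. The quartiles were 3.82 and 17.2 kb in group 1 and 26.2 and 135 kb in group 5. The median number of exons of the longest transcript was 4 in group 1 and 15 in group 5, and its median length was 1509 and 5559 bases. The annotation held 2210 of the 2211 genes. Genes under 50 CPM in intact beta cells, such as Cacna1c, entered these groups only through their level in members. The part of that minimum in the pattern was not tested. Whether reads in introns were counted is not given in the sources used here, and their part in this pattern was not tested.

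**Figure D4:**
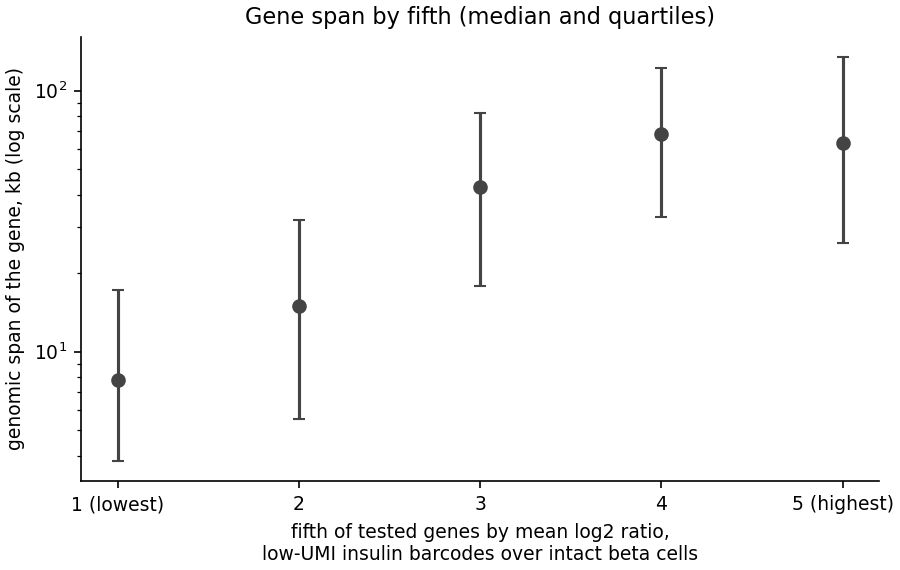
Points are the median genomic span of the tested genes in 5 equal groups by the ratio of low-UMI insulin barcodes over intact beta cells, and bars run between the quartiles, on a log axis in kb. Group 1 has a median of 7.80 kb, and groups 4 and 5 have 68.0 and 63.2 kb.

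By annotated gene type, 19 of 21 tested long noncoding genes and 1128 of 2185 protein-coding genes were at least 2-fold higher in members in both libraries (52.1% over all genes). The 21 include Malat1, Meg3, Kcnq1ot1, Neat1 and Mirg, already given above, so this count is not separate from that of the lncRNA list. Snhg11 is annotated as protein coding and falls in the other class. The 21 also include the unnamed gene model AY036118. Mirg and AY036118 were among the genes that passed the 50 CPM minimum through members only. That favours a count as higher, so these counts are a description. Relative to the median gene, 17 of the 21 (81.0%) and 354 of the 2185 (16.2%) were at least 2-fold above (16.9% over all genes). The median ratio of the noncoding genes was log2 3.27 in the library labelled BcBKO and 3.51 in the flox/flox library, and that of the protein-coding genes 1.10 and 1.26.

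Ribosomal protein transcripts, summed, took a smaller share of UMIs in members. The 86 ribosomal protein genes, which encode the protein part of the ribosome, had a summed log2 ratio of -0.42 (-0.44 to -0.40) in the library labelled BcBKO and of -0.40 in the flox/flox library. None of the 79 tested was 2-fold higher (52.1% over all genes) or lower (1.22%) in both libraries, and 76 were at least 2-fold below the median gene (28.9% over all genes). Rps9 was at 221 CPM in members and 396 CPM in intact beta cells of the library labelled BcBKO and at 191 and 354 CPM in the flox/flox library. Rpl13a, at the other end, was at 332 and 287 CPM and at 267 and 235 CPM. Of ribosomal protein UMIs a member held 3.18% of the number in an intact beta cell in the library labelled BcBKO and 2.74% in the flox/flox library.

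Translation factors had summed ratios of log2 -0.37 and -0.30, with Eif1, a start codon selection factor, at -0.81 and -0.70. None of the 20 tested was 2-fold higher (52.1% over all genes) or lower (1.22%), and 14 were at least 2-fold below the median gene (28.9% over all genes). Nuclear genes of the respiratory chain had summed ratios of log2 -0.60 and -0.61, and 40 of 41 tested were at least 2-fold below the median gene (28.9% over all genes). Uqcrb, a complex III subunit, was at 86.5 CPM in members and 222 CPM in intact beta cells of the library labelled BcBKO and at 91.6 and 195 CPM in the flox/flox library. Ndufa1, a complex I subunit, was at 89.99 and 184 CPM and at 69.7 and 164 CPM. These were the 2 of 41 genes at least 2-fold lower in both libraries (1.22% over all genes).

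The 13 mitochondrial-encoded genes, whose share the rule limits, had summed ratios of log2 0.97 and 1.21 in the library labelled BcBKO and the flox/flox library, and of -0.36 and -0.26 with TMM factors. A member held 8.36% and 8.42% of the mitochondrial-encoded UMIs of an intact beta cell. Of the 13 genes, 6 were at least 2-fold higher in both libraries (52.1% over all genes) and 1 was at least 2-fold above the median gene (16.9% over all genes). That gene was mt-Nd6 (log2 2.17 and 2.38), while mt-Co1 was at 0.67 and 0.95.

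The granule and exocytosis list had summed ratios of log2 -1.25 and -1.31, with a median gene at -0.39 and -0.34. Of its 19 tested genes 12 were at least 2-fold below the median gene (28.9% over all genes), and 2, Iapp and Scg5, were at least 2-fold lower in both libraries (1.22% over all genes). Its level was set mostly by Iapp, which encodes the co-secreted hormone amylin and was at 19817 CPM in members and 60070 CPM in intact beta cells of the library labelled BcBKO and at 17354 and 55972 CPM in the flox/flox library. Scg5, a chaperone of the prohormone convertase 2, was at 273 and 578 CPM and at 237 and 540 CPM. Within the same list 5 genes were at least 2-fold higher (52.1% over all genes), among them Ptprn2, a granule membrane protein (log2 2.77 and 3.27), and Snap25, a fusion protein (2.19 and 1.99).

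Of the 24 tested ER folding and processing genes 4 were at least 2-fold lower in both libraries (1.22% over all genes) and 20 at least 2-fold below the median gene (28.9% over all genes). Spcs1, a subunit of the signal peptidase, was at 64.9 CPM in members and 235 CPM in intact beta cells of the library labelled BcBKO and at 67.7 and 210 CPM in the flox/flox library. Sdf2l1, an ER chaperone partner, was at 50.2 and 163 CPM and at 50.8 and 142 CPM. Hspa5, the main ER chaperone BiP, was at log2 0.50 and 0.88.

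The 12 genes with the lowest ratios in the same ranking, which left out ribosomal protein genes and the other classes named above, were Med28, Spcs1, Iapp, Sdf2l1, Hopx, Iscu, Spcs2, Psmb5, Coa3, Ost4, Fkbp1b and Tmem258. Besides Spcs1 they include Spcs2, another signal peptidase subunit (log2 -1.17 and -1.37), and Ost4, a subunit of the oligosaccharyltransferase (-1.13 and -1.35). Iscu, the scaffold of iron-sulfur cluster assembly, was at -1.21 and -1.26, and Coa3, a complex IV assembly factor, at -1.17 and -1.13. Med28, a Mediator subunit and the lowest of the 12 by the library nearer to 0, was at 19.04 CPM in members and 61.8 CPM in intact beta cells of the library labelled BcBKO and at 17.9 and 62.4 CPM in the flox/flox library.

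Of 10 tested cytoskeletal genes none was 2-fold higher (52.1% over all genes) or lower (1.22%) in both libraries. The list differed in sign between the libraries, with summed log2 ratios of -0.06 (-0.12 to -0.0022) in the library labelled BcBKO and 0.22 (0.16 to 0.28) in the flox/flox library. With TMM factors both were below 0, at -1.39 and -1.25. Without members holding 5 or more UMIs of other cell types' markers both were also below 0, at -0.33 and -0.16. Actb, the main cytoplasmic actin, was at 440 CPM in members and 430 CPM in intact beta cells of the library labelled BcBKO and at 515 and 384 CPM in the flox/flox library. Glycolysis genes were at -0.22 (-0.33 to -0.11) and 0.03 (-0.08 to 0.13).

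**Figure D5:**
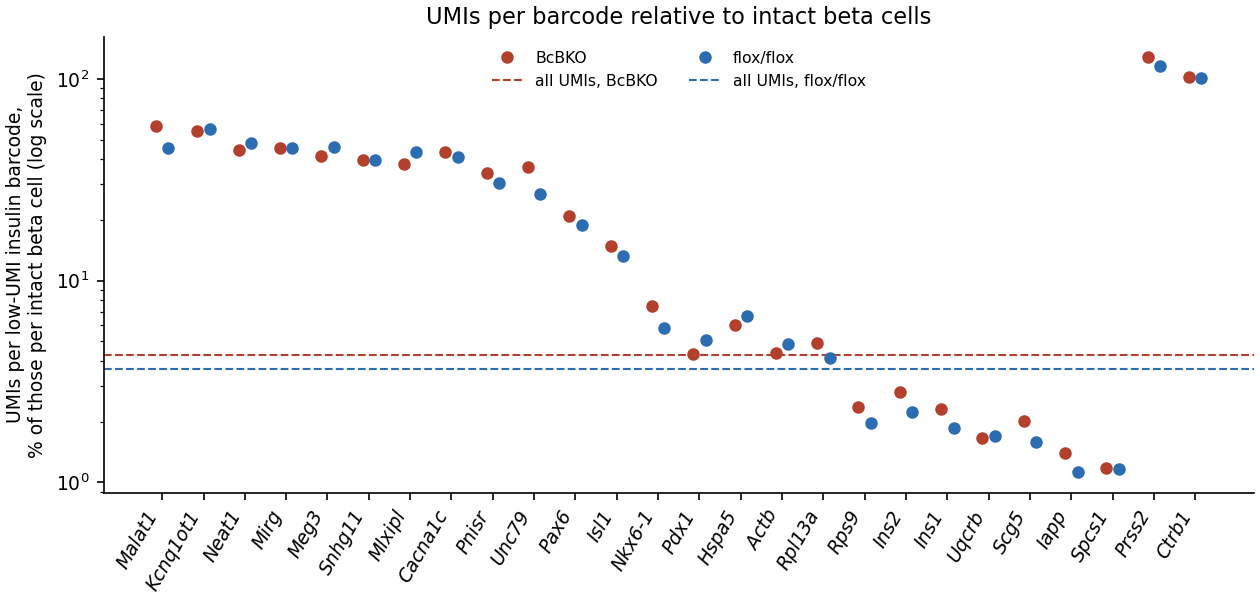
For named genes the mean UMIs per low-UMI insulin barcode are given as a percentage of the mean UMIs per intact beta cell of the same library, on a log axis, with the value over all UMIs as dashed lines (4.26% in BcBKO and 3.63% in flox/flox). The lncRNAs lie between 39.4% and 58.5%, and the acinar genes Prss2 and Ctrb1 above 100%. The secretory genes Iapp, Scg5 and Spcs1 lie below the lines, and Hspa5, an ER chaperone gene, above them.

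Transcripts of islet transcription factors were counted in members as well. Pax6, a transcription factor of all islet endocrine cells, averaged 1.02 UMIs per member and 4.89 per intact beta cell in the library labelled BcBKO, and 0.921 and 4.86 in the flox/flox library. Macrophage-marker barcodes held 0.0979 and 0.0783 Pax6 UMIs per barcode, although they were deeper. Nkx6-1, a beta-cell transcription factor, averaged 0.393 per member, 5.27 per intact beta cell and 0.0767 per macrophage-marker barcode in the library labelled BcBKO, and 0.351, 6.06 and 0.100 in the flox/flox library. Of 9 tested beta-cell transcription factors 3 were at least 2-fold higher in CPM in both libraries (52.1% over all genes), namely Pax6 (log2 2.29 and 2.37), Rfx6 (2.08 and 2.56) and Isl1 (1.80 and 1.86). Of the 9, 1 was at least 2-fold above the median gene (16.9% over all genes) and 1 at least 2-fold below it (28.9%). Summed, the list was at log2 1.23 and 1.44, and at -0.10 and -0.04 with TMM factors. Pdx1 was at 0.02 (-0.33 to 0.35) and 0.47 (0.11 to 0.83), below the median gene in both libraries. Mafa was at about 1 CPM or less in members, from 1 UMI in each library, and at 1.25 and 0.782 CPM in intact beta cells.

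Insulin itself varied widely among members, and the number of insulin UMIs per barcode bears on the 20% limit. In the library labelled BcBKO, 334 members had 20 to 30% insulin, 161 had 30 to 45% and 218 had 45% or more. The counts in the flox/flox library were 293, 165 and 175. Members of 20 to 30% held a mean of 219 Ins2 UMIs in the library labelled BcBKO and 221 in the flox/flox library. Macrophage-marker barcodes held 181 and 177 Ins2 UMIs, and insulin barcodes under 800 UMIs held 176 and 169. The insulin count of members nearest the limit thus lay close to that of barcodes with markers of another cell type.

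In Meg3 and Pax6 the members of 20 to 30% insulin lay above those barcodes. Their Meg3 averaged 9.98 and 9.87 UMIs, the library labelled BcBKO first, against 0.598 and 0.485 in macrophage-marker barcodes and 0.790 and 0.866 in insulin barcodes under 800 UMIs. Their Pax6 averaged 0.871 and 0.986, against 0.0979 and 0.0783 in macrophage-marker barcodes and 0.135 and 0.123 in insulin barcodes under 800 UMIs. Malat1 averaged 145 and 120 in these members, 92.7 and 100 in macrophage-marker barcodes and 10.2 and 7.70 in insulin barcodes under 800 UMIs. Insulin-poor barcodes of the members' own UMI range lay nearer, with 4.96 and 7.80 UMIs of Meg3, 0.505 and 0.675 of Pax6 and 119 and 143 of Malat1, the last above the members in the flox/flox library.

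Members of 45% insulin or more held 813 Ins2 UMIs per barcode in the library labelled BcBKO and 778 in the flox/flox library. Their Ins1 to Ins2 ratio of summed UMIs was 0.327 in both libraries, against 0.422 and 0.434 in members of 20 to 30% and 0.441 and 0.446 in intact beta cells. As a share, Ins1 was 24.7% (24.5 to 24.8) of the insulin UMIs of these members in the library labelled BcBKO and 24.6% (24.4 to 24.8) in the flox/flox library, against 30.6% and 30.8% in intact beta cells. Ins1 and Ins2 are near-identical copies, and how the authors' counting split reads between them is not known. The Iapp to Ins2 ratio was 0.0485 and 0.0428 in these members, against 0.139 and 0.126 in intact beta cells.

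The lncRNA share fell as the insulin share rose. It was 11.9% of summed UMIs at 20 to 30% insulin, 7.82% at 30 to 45% and 4.82% at 45% or more in the library labelled BcBKO, and 9.84%, 7.07% and 4.55% in the flox/flox library. Shares of a fixed total are tied to each other, and the list's UMIs per barcode had the same order less steeply. A member held 158, 135 and 95.8 lncRNA UMIs in these strata in the library labelled BcBKO and 133, 116 and 87.3 in the flox/flox library. That order followed Malat1, at 145, 121 and 83.3 UMIs per barcode in the library labelled BcBKO and 120, 102 and 75.7 in the flox/flox library. Neat1 ran the other way, at 0.775, 1.19 and 1.26 in the library labelled BcBKO and 0.741, 0.976 and 1.23 in the flox/flox library, and Kcnq1ot1 varied less, between 1.39 and 1.52 over the strata of both libraries. Every stratum was above the 0.621% and 0.580% of intact beta cells.

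Across members the lncRNA share and the ribosomal protein share ran in opposite directions, with Spearman's rho of -0.51 in each library (n = 713 and 633 barcodes). Leaving insulin out of the totals gave -0.68 in the library labelled BcBKO and -0.61 in the flox/flox library. The lncRNA share and the splicing and speckle share had rho of 0.53 and 0.54, and 0.16 and 0.19 without insulin. Barcodes of a library are not independent samples, and shares within a barcode sum to a fixed total, so these are descriptions of each library.

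A small subset of members did not carry the lncRNA pattern. The share was 2% or less in 29 members of the library labelled BcBKO (4.07%) and in 35 of the flox/flox library (5.53%). Their median ribosomal protein share was 8.36% and 8.80%, against 2.22% and 1.98% in the other members. Of the 29, 19 held 5 or more UMIs of a marker list of endothelial, mural, macrophage, B or T/NK cells, and of the 35, 22 did. Among the members above 2%, 16 of 684 and 10 of 598 did. Over all members, 35 in the library labelled BcBKO held such markers (21 endothelial, 7 mural, 3 macrophage and 4 B lymphocyte), and 32 in the flox/flox library (19, 5, 6 and 1, with 1 of T or NK lymphocytes). The limits of 2% and 5 UMIs were chosen after the values were seen.

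Other hormones were present as well. Gcg averaged 9.76 UMIs per member, 22.8 per intact beta cell and 8.85 per macrophage-marker barcode in the library labelled BcBKO, and 8.23, 13.7 and 6.64 in the flox/flox library. Irx2, an alpha-cell transcription factor, was at 7.79 CPM in members of the library labelled BcBKO and at 6.97 CPM in flox/flox members, from 9 and 7 UMIs. Sst was at 1882 CPM in members and 267 CPM in intact beta cells of the library labelled BcBKO and at 916 and 109 CPM in the flox/flox library, and 47 and 16 members with 5 or more delta marker UMIs held 55.7% and 44.8% of that list's UMIs. Intact beta cells were limited in Gcg, Sst and Ppy by their definition, and members were not.

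Acinar markers encode mostly digestive enzymes of the exocrine pancreas. In CPM all 7 tested acinar markers were at least 2-fold higher in members than in intact beta cells in both libraries (52.1% over all genes) and at least 2-fold above the median gene (16.9% over all genes), with a summed 25.4-fold ratio in the library labelled BcBKO and 29.5-fold in the flox/flox library. In the library labelled BcBKO all 7 passed the 50 CPM minimum through members only, and in the flox/flox library at least Prss2 did. That favours a count as higher, so these counts are a description. In UMIs per barcode the 3 sets lay close together. The 20 acinar markers together averaged 1.67 UMIs per member, 1.55 per intact beta cell and 1.62 per macrophage-marker barcode in the library labelled BcBKO. They averaged, in the flox/flox library, 11.7, 10.9 and 12.1. A member thus held 108% of the acinar UMIs of an intact beta cell in the library labelled BcBKO and 107% in the flox/flox library, with 4.26% and 3.63% of all UMIs. Insulin barcodes under 800 UMIs held more, 6.26 acinar UMIs per barcode in the library labelled BcBKO and 22.6 in the flox/flox library. The part of RNA from outside the cells in these values was not tested.

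Prss2, a trypsinogen, averaged 0.255 UMIs per member and 0.200 per intact beta cell in the library labelled BcBKO, and 1.81 and 1.56 in the flox/flox library. At 1000 UMIs per barcode, Prss2 was found in 15.7% of members, 0.556% of intact beta cells and 4.23% of macrophage-marker barcodes of the library labelled BcBKO. In the flox/flox library it was found in 69.2%, 3.93% and 27.0%. No member of the library labelled BcBKO had 2% or more acinar UMIs, and 15 flox/flox members did.

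The difference between libraries in members was led by acinar RNA. Of 2517 genes with at least 50 CPM in members of either library, 6 (0.238%) were at least 2-fold higher and 37 (1.47%) at least 2-fold lower in the library labelled BcBKO, and all 19 acinar markers tested were among the lower. Summed, acinar markers were at 1030 CPM (972 to 1090) in members of the library labelled BcBKO and at 7368 CPM (7201 to 7538) in flox/flox members, a log2 ratio of -2.84. In intact beta cells the log2 ratio was -2.62. The median ratio over the 2517 genes was -0.06.

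The nuclear lncRNA list was 1.13-fold higher in members of the library labelled BcBKO (log2 0.17, 0.16 to 0.19), and 0.10 higher in its intact beta cells (0.09 to 0.10). With 1 library per group the spread between animals behind a difference of that size is unknown. Ribosomal protein genes were 0.14 and nuclear respiratory chain genes 0.16 higher on the log2 scale in members of the library labelled BcBKO. None of the tested genes of either list was 2-fold higher (0.238% over all genes) or lower (1.47%). Apart from the acinar and delta lists, 1 gene of the other lists reached 2-fold between the libraries in members, the macrophage gene Lyz2.

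Single genes were ranked between the libraries with the same classes left out, acinar markers among them, and without sex-linked transcripts. The 8 genes highest in the library labelled BcBKO among members were Pdyn, Pappa2, Rbp4, Prom1, Gpd2, Fam19a1, Pde10a and Sfxn2. Pdyn, which encodes the opioid precursor prodynorphin, was at 56.2 CPM in members of the library labelled BcBKO and 14.9 CPM in flox/flox members (65 and 15 UMIs), and at 89.5 and 37.1 CPM in intact beta cells. Pappa2, a protease of insulin-like growth factor binding proteins, was at 96.9 and 34.9 CPM in members and at 71.6 and 39.2 CPM in intact beta cells. Rbp4, a retinol carrier that is also on the delta list, was at 95.2 and 38.8 CPM in members and at 21.9 and 7.76 CPM in intact beta cells. Gpd2, the mitochondrial glycerol-3-phosphate dehydrogenase, was at 79.6 and 36.8 CPM in members and at 30.6 and 24.7 CPM in intact beta cells. All 8 had the same sign in intact beta cells, where log2 ratios ran between 0.23 and 1.39.

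The 8 lowest outside the acinar markers and the other classes left out were Lyz2, Rnase1, Apoe, Usp3, H2-Ab1, H2-Aa, Ctsf and Cd74. Rnase1, a secreted ribonuclease, was at 36.3 CPM in members of the library labelled BcBKO and 259 CPM in flox/flox members, and its log2 ratio was -1.81 in intact beta cells. Lyz2, lysozyme of macrophages, was at 6.92 and 59.8 CPM, from 8 and 60 UMIs. Apoe, an apolipoprotein of macrophages among other cells, was at 132 and 609 CPM, and Cd74, the class II invariant chain, at 132 and 363 CPM. In intact beta cells these 3 were 0.21, 0.33 and 0.73 higher in the library labelled BcBKO, the opposite sign.

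Macrophage marker UMIs were concentrated in few flox/flox members. Of the flox/flox members, 6 held 5 or more macrophage marker UMIs and together 72.4% of the list's 250 UMIs, and in the library labelled BcBKO 3 members held 28.7% of its 136 UMIs. Without members holding markers of other cell types, the log2 ratio of Cd74 between libraries was 0.15, that of Apoe -0.99 and that of Lyz2 -1.33. The ratio of Lyz2 over intact beta cells in flox/flox members was then log2 0.97. That places Lyz2 under the 50 CPM minimum in both libraries, so its -1.33 rests on few UMIs and is not counted as a 2-fold difference.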

How the data were processed

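The deposited matrices hold raw UMI counts per gene and barcode, made by the authors with Cell Ranger 3.1.0 and mm10, per the submitters' processing notes, which also name Seurat 4.0.0; the matrix header, per the file headers, names Cell Ranger 6.1.2. Whether introns were counted, strand use and the annotation are not given in the sources used here. Counts of 28692 genes were summed per set and library and scaled to CPM (Python 3.11.15, numpy 2.4.6, pandas 2.3.3, scipy 1.17.1). Ratios used a pseudocount of 1 CPM, and genes of at least 50 CPM in members or intact beta cells of each library (in either library, between libraries) were counted past 2-fold. Intervals are exact 95% intervals without the pseudocount. Named genes were the 12 highest and 12 lowest ratios, the 8 highest and 8 lowest between libraries, the lncRNA list and the 2 extremes at each end of each list; mitochondrial, ribosomal protein, acinar, hormone and unnamed genes were named only as list extremes or for a stated check. Doublets were kept; Scrublet (scanpy 1.11.5, 8% assumed rate) called 2.14% and 2.20% of barcodes, the library labelled BcBKO first. TMM used edgeR 4.0.16. Members and lists were chosen with earlier results of these data known. The calculations were tested on simulated data. Some genes and sequences are not reported here.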

Additional observations from a re-analysis of the deposited data

Results flagged for a closer look

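The cytoskeleton list was the 1 of 163 lists and genes compared whose ratio of low-UMI insulin barcodes over intact beta cells had opposite signs in the libraries with intervals that exclude 0. The log2 ratio was -0.0610 in the library labelled BcBKO and 0.223 in the flox/flox library. The opposite signs did not remain without members holding other cell types' markers, where the ratios were -0.33 and -0.16, the library labelled BcBKO first. The difference between the libraries was not tested, as each group is 1 library.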

How the results depend on the processing

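No paired analysis was possible because the labels carry no replicate numbers and each group is 1 library. In each list of values the library labelled BcBKO comes first. The lncRNA list, members over intact beta cells, was at log2 3.06 and 2.88 with totals without insulin and mitochondrial genes, 2.40 and 2.18 with TMM factors, 3.88 and 3.67 for members of 1000 to 2000 UMIs, 3.08 and 3.06 at 40% insulin or more, 3.75 and 3.69 without Scrublet calls, 3.71 and 3.61 from mean shares, 3.77 and 3.71 without members holding other cell types' markers, and 3.75 (BcBKO) against intact cells of at least 20000 UMIs. Between libraries it was 0.19, 0.23, 0.30, 0.12, 0.23 (mean shares) and 0.16 (without other markers) in that order. Ribosomal protein genes were at -1.09 and -1.18 without insulin and mitochondrial totals, -1.75 and -1.88 with TMM, -0.38 (flox/flox) at 1000 to 2000 UMIs, -0.47 and -0.53 at 40% insulin, -0.43 (flox/flox) from mean shares, and -0.55 and -0.62 without other markers. The number of tested genes differs between settings, so counts are followed by their share of the genes tested in that setting. Genes 2-fold higher in members numbered 1188 (27%) without insulin and mitochondrial totals, 164 (8.27%) with TMM and 714 (40.6%) at 40% insulin. They numbered 2580 (50.8%) with a minimum of 20 CPM, 5081 (28.9%) with none and 374 (16.9%) relative to the median gene. Those lower numbered 626 (14.2%) without insulin and mitochondrial totals, 1007 (50.8%) with TMM and 87 (4.95%) at 40% insulin. They numbered 45 (2.04%) without other markers, 66 (0.375%) with no minimum and 639 (28.9%) relative to the median gene. Between libraries the higher genes numbered 20 (0.445%) without insulin and mitochondrial totals, 3 (0.225%) with TMM and 12 (0.442%) at 1000 to 2000 UMIs. They numbered 24 (1.19%) at 40% insulin, 44 (0.754%) at 20 CPM and 987 (6.4%) with no minimum. The lower ones numbered 58 (1.29%) without insulin and mitochondrial totals, 71 (3.51%) at 40% insulin, 95 (1.63%) at 20 CPM and 976 (6.33%) with no minimum. The acinar list between libraries was at -2.74 without members of 2% or more acinar UMIs. Members were 8.38% and 8.36% of barcodes that pass the gene, UMI and mitochondrial limits, 2.56% and 2.49% of all at 40% insulin, and 5.31% and 5.62% at 1000 to 2000 UMIs.

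Turned signs were listed only for ratios that were at least 2-fold, in either direction, before the alternative. Among these, signs turned with TMM for the mitochondrial-encoded list (-0.26, flox/flox), the beta-cell transcription factors (-0.10 and -0.037), H2-Aa (-0.28) and Cd74 (-0.0151) in the library labelled BcBKO, and Ctsf (-0.18) and Sfxn2 (-0.028) in the flox/flox library, all members over intact beta cells. At 40% insulin they turned for Xist (-0.14), Irx2 (-0.67), Pvt1 (-0.32), H2-Aa (-0.72) and Cd74 (-0.65) in the library labelled BcBKO and Rmst (-0.036) in the flox/flox library, and between libraries for the macrophage list (0.26), Cd74 (0.065) and Xist (0). Without members holding other cell types' markers they turned for H2-Aa (-0.19) and Cd74 (-0.21) in the library labelled BcBKO and, between libraries, for the macrophage list (0.25) and Cd74 (0.15). Smaller ratios of members over intact beta cells turned too. With TMM these included the mitochondrial-encoded list (-0.36) and Apoe (-0.52) in the library labelled BcBKO and the cytoskeleton list (-1.25) in the flox/flox library. Without other markers they included Apoe (-0.011) in the library labelled BcBKO and the cytoskeleton list (-0.16) in the flox/flox library. The alternative without other cell types' markers and the median-gene reference were chosen after seeing the data. The causes were not tested beyond the alternatives' own construction. With 1 library per group, the spread between animals is unknown, and genes of a few UMIs have wide intervals.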
